A study of Homo sapiens with 2 samples.

Results

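The genes described here are 10 genes that KMT2A fusion proteins are known to keep active in leukaemia: HOXA3, HOXA5, HOXA6, HOXA7, HOXA9, HOXA10, MEIS1, PBX3, MEF2C and FLT3. A gene was included through any probe that the platform annotation pairs with that single symbol. By this rule 4 of the 10 genes had a probe, with 1 probe each, among 20046 genes named on the array: MEIS1, PBX3, MEF2C and FLT3. The annotation used here paired 0 of the 6 HOXA genes with a probe, so their own levels were not analysed here. The study compared 2 stably transduced sublines of THP-1, a monocytic line from a human leukaemia that carries the KMT2A-MLLT3 fusion. One subline, shLY6E, expresses a short hairpin RNA against LY6E, and the other, shCtrl, expresses a scrambled hairpin. Both were grown under puromycin, and each was read on 1 Illumina array of total RNA, so each group has n = 1. The labels do not say whether either subline came from a single clone.

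KMT2A is a histone methyltransferase that holds HOX genes open during development and in blood stem cells. In leukaemic fusions its amino-terminal part, which binds unmethylated CpG through a CXXC domain, is joined to a partner such as MLLT3 that brings in elongation factors and another histone methyltransferase, DOT1L. The HOXA genes and MEIS1 are the best known targets of such fusions. HOXA9, MEIS1 and PBX3 proteins bind DNA together, and together they block the maturation of myeloid progenitors.

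Because CpG is what the CXXC domain binds, the 250 bases before the start site are shown for the 3 measured members with 1 start site in the RefSeq table (GRCh38.p14), each CpG in capitals. They are FLT3 on the minus strand at chr13:28100577-28100826, PBX3 on the plus strand at chr9:125747933-125748182 and MEIS1 on the plus strand at chr2:66434875-66435124.
FLT3: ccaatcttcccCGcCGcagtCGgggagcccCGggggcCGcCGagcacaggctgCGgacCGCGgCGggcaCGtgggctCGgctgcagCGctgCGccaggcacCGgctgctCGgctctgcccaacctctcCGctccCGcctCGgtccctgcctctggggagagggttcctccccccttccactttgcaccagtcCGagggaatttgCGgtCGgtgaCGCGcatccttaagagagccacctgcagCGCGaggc
PBX3: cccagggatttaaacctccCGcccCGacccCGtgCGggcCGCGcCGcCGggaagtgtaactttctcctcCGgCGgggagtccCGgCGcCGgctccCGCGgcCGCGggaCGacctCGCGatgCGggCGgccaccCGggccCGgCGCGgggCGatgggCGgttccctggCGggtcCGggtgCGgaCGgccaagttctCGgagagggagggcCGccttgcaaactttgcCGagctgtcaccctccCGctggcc
MEIS1: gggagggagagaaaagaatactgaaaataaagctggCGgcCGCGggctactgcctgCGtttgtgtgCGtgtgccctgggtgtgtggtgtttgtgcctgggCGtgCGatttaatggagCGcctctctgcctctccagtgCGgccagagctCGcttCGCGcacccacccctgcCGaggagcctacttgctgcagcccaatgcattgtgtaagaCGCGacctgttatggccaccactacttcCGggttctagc
These windows held 26 CpG in FLT3, 36 in PBX3 and 16 in MEIS1, against a median of 11 over 35116 promoter windows of the same length. MEF2C has 7 start sites in that table, with between 0 and 28 CpG each, and the array does not tell which of them was used. The letters TGACAG, the core that MEIS proteins bind, were searched on both strands. They occurred in 13.0% of all windows, in the PBX3 window once, in 3 of the 7 MEF2C windows, and in neither the FLT3 nor the MEIS1 window. The letters TGATNNAT, a PBX and HOX pair site, occurred in 6.47% of all windows and in 1 MEF2C window. No match of the one overlapped a match of the other in these windows (0 positions), and a match is a description of the sequence only.

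Each difference is the background-corrected, quantile-normalized log2 intensity in shLY6E minus that in shCtrl, or the fold that this gives. The detection p-value had to be under 0.01 for a probe to count as detected, and the lowest intensity that passed was 106 in shLY6E and 129 in shCtrl. Of 47321 probes, 16378 were detected in shLY6E and 16283 in shCtrl, and 10565 named genes were detected on at least 1 array. LY6E, the target of the hairpin, gave 253 units of intensity in shLY6E and 1049 in shCtrl, and was 3.67-fold lower. All 11 monocyte markers with a probe were detected on both arrays, and 2 of them, CD14 and LYZ, reached 2-fold higher in shLY6E. Summed over the 11 markers, deposited intensity came to 25316 in shLY6E and 26986 in shCtrl. These sums are not normalized for the dimmer shLY6E array and give no direction for the markers. Their part in the results below was not tested. T cell markers were detected for 0 of 5 genes on either array. Of 4 B cell markers with a probe, 2 were detected in shLY6E and 1 in shCtrl. These counts were 1 and 1 of 4 for erythroid, 2 and 2 of 4 for megakaryocyte and 0 and 1 of 4 for fibroblast markers. The highest intensity among B cell, erythroid, megakaryocyte and fibroblast markers was 126 in shLY6E and 187 in shCtrl. With n = 1 there is no spread between samples, and precision is limited by how few arrays there are. The spread at hand is between probes of 1 gene on the same arrays. Over the 2254 genes that had 2 or more probes above the limit in both sublines, the within-gene SD of the difference was 0.28. This SD is taken between probes on the same arrays and does not measure variation between cultures, so a difference above it says nothing about the hairpin.

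Of the 4 members with a probe, 3 were detected, each on both arrays. FLT3 was at least 2-fold higher in shLY6E, PBX3 was higher by less, and MEF2C lay close to 0. Thus 1 of 3 detected members was at least 2-fold higher, where 2.27% of all 10565 detected genes were, and 0 of 3 were at least 2-fold lower, where 2.55% of all genes were. The median of the 3 was 0.49, which is the value of PBX3 itself, and the median of all detected genes was -0.04. The plot of deposited intensities shows the 4 probes and LY6E on both arrays.

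**Figure D1:**
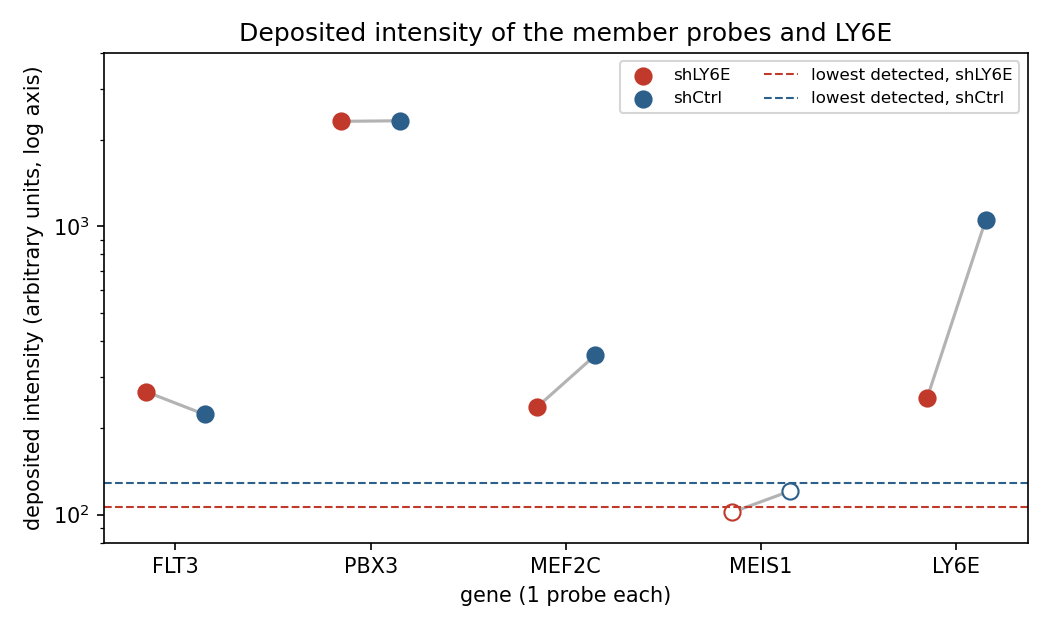
Deposited intensity (log axis, arbitrary units) of the 1 probe of each measured gene, shLY6E in red on the left and shCtrl in blue on the right, 1 array each. Filled points passed the detection limit and open points did not, and dashed lines mark the lowest detected intensity of each array. FLT3 was brighter in shLY6E (267 against 223), and both MEIS1 points (102 and 121) lie under the limit of their array.

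FLT3 encodes a receptor tyrosine kinase of haematopoietic progenitors that is often mutated in acute myeloid leukaemia. Its probe gave 267 in shLY6E and 223 in shCtrl, with a detection p-value of 0 on both arrays. FLT3 was thus brighter in the subline whose array was dimmer as a whole: the median deposited intensity of all probes was 97.5 in shLY6E and 116 in shCtrl. After background correction and normalization, FLT3 stood at 7.89 in shLY6E and 6.79 in shCtrl on the log2 scale, a difference of 1.10 or 2.15-fold. In the authors' processed intensities it stood at 224 in shLY6E and 98.5 in shCtrl. It ranked 201 from the highest of 10565 genes, at percentile 98.1. Over 282 genes of similar brightness to FLT3 and MEF2C, the within-gene SD between probes was 0.22, and no other FLT3 probe was listed to set beside this one. The call of 2-fold was lost in 3 settings: the difference was 0.67 when scaled to the median of all probes, 0.72 without background correction and 0.91 with a larger offset of 50. The settings that change only the detection rule, the use of several probes or the bound could not move this difference. FLT3 has 1 probe, and both arrays detected it.

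PBX3 encodes a homeobox protein of the TALE class that binds DNA with HOXA and MEIS proteins. As deposited its intensity was nearly equal, 2317 in shLY6E and 2327 in shCtrl. On the normalized log2 scale it stood at 11.38 in shLY6E and 10.89 in shCtrl, so that PBX3 was 1.41-fold higher in shLY6E after the dimmer array had been brought to a common distribution. Its rank was 944 of 10565, at percentile 91.1, and its difference of 0.49 was larger than the between-probe SD of 0.28. Scaling to the median of all probes, most of which lie at background, gave 0.12 in place of 0.49.

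MEF2C encodes a MADS-box transcription factor that is highly expressed in KMT2A-rearranged leukaemia and in early lymphoid and myeloid progenitors. Its probe gave 235 in shLY6E and 357 in shCtrl. Normalized, MEF2C stood at 7.61 in shLY6E and 7.79 in shCtrl, a difference of -0.18, which is smaller than the between-probe SD. It ranked 6959 from the highest of 10565 genes. Scaled to the median of all probes, MEF2C was at -0.62, a setting in which the median of all detected genes was itself at -0.42.

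MEIS1, a TALE homeobox gene and a cofactor of HOXA9, was not detected on either array. Its probe gave 102 in shLY6E, with a detection p-value of 0.0545, and 121 in shCtrl, with a detection p-value of 0.0455. Both values lie just under the lowest detected intensity of their array, so no fold is given. With detection at a p-value under 0.05, MEIS1 would count as detected in shCtrl alone, still with no measurable fold. At this signal a difference in MEIS1 between the sublines was not detectable.

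**Figure D2:**
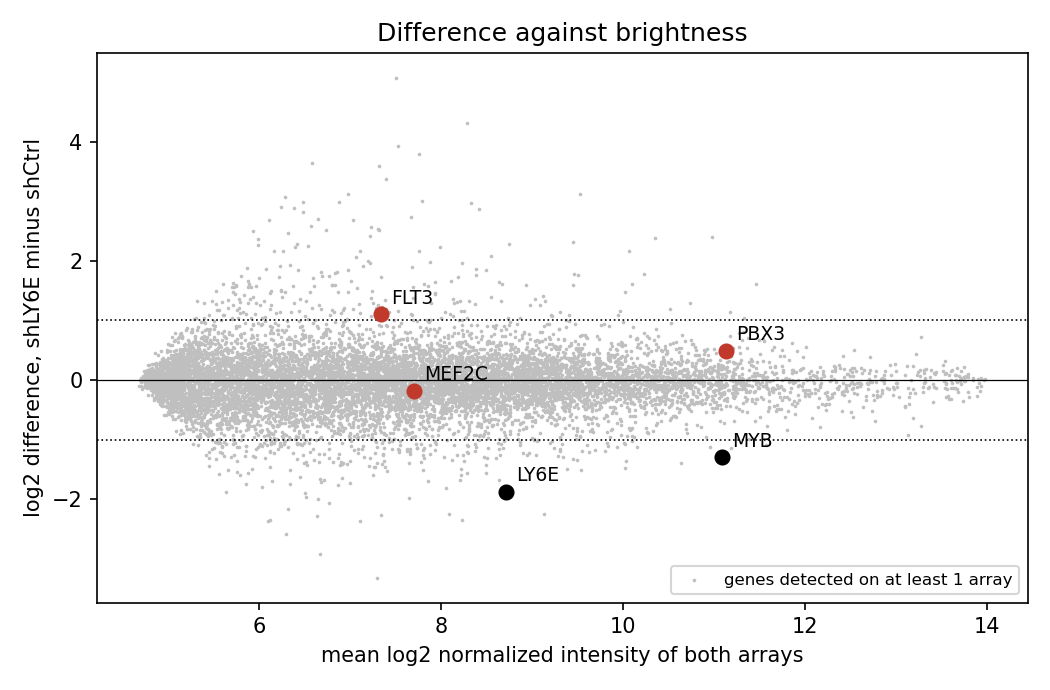
Log2 difference, shLY6E minus shCtrl (vertical), against the mean log2 normalized intensity of both arrays (horizontal), for 10565 genes detected on at least 1 array (grey), with a bound drawn for genes detected on 1 array. The members FLT3 (1.10), PBX3 (0.49) and MEF2C (-0.18) are red, LY6E (-1.88) and the further target MYB (-1.30) are black, and dotted lines mark 2-fold.

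The members lie on different chromosomes, and their neighbours were read for the same difference. Among the 20 genes detected on both arrays that lie nearest to FLT3 on chromosome 13, the median was -0.09 and the highest 0.57. Of these 20, 0 were as high as FLT3. Over all 9364 genes detected on both arrays FLT3 ranked 170 from the highest, so a count of 0 in 20 does not set its neighbours apart. The 20 nearest to PBX3 on chromosome 9 had a median of -0.03, and 2 of them were as high as PBX3, which ranked 830 of those 9364. The 20 nearest to MEF2C on chromosome 5 had a median of -0.11. Around the HOXA cluster on chromosome 7, the 20 genes nearest to HOXA9, HOXA genes left out, had a median of -0.0041.

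Of 9 other genes in or beside the HOXA cluster, 4 had a probe and 2 were detected, HOTTIP and SKAP2. Both were below 0, as were 54.4% of all detected genes. HOTTIP, a long noncoding RNA from the HOXA13 end of the cluster that is known to help KMT2A complexes act on nearby HOXA genes, had an intensity of 128 in shLY6E and 231 in shCtrl. It was 1.91-fold lower in shLY6E (-0.93), and -0.47 without background correction. The share of all detected genes that were at least 1.5-fold lower was 9.63%, and 6.55% were higher by that much. SKAP2, which encodes an adaptor protein of leukocytes, differed by -0.10 and its other probe by 0.13, and the mean over its probes was 0.02. The probes of HOXA2 and of EVX1, a homeobox gene beyond HOXA13, were not detected on either array. The genes of the HOXB, HOXC and HOXD clusters all had probes, and 26 of 28 were not detected. Their 34 probes had a median intensity of 93.7 in shLY6E and 111 in shCtrl, at background. HOXC13 was 1.60-fold higher in shLY6E (122 against 129 as deposited), but stood at 0.23 without background correction and 0.45 when scaled to the median of all probes, and HOXB6, above the limit in shLY6E alone, was at least 1.21-fold higher. Both lie near the detection limit.

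Among the other TALE homeobox genes, which encode partners and competitors of MEIS1 and PBX3, 6 of 8 with a probe were detected, with a median of -0.16. This median was above 0 with a detection p-value under 0.05 (0.12), with no detection filter (0.09) and with the mean over probes (0.05). By a factor of at least 1.5, 2 of the 6 were lower and 0 higher, where 9.63% of all genes were lower and 6.55% higher by that much. MEIS2, the closest relative of MEIS1, had an intensity of 152 in shLY6E and 280 in shCtrl and was 1.72-fold lower. PBX4 had 139 in shLY6E and 231 in shCtrl and was 1.56-fold lower. Without background correction MEIS2 stood at -0.46 and PBX4 at -0.34, so 0 genes of this list were then 1.5-fold lower. In that setting 675 of all 10565 genes were at least 1.5-fold apart, against 1709 as reported. PKNOX1, which competes for PBX partners, stood at -0.47 by its brighter probe and 0.37 by the other, so its probes differ in sign. TGIF1 and TGIF2, repressors that recognise the same core as MEIS proteins, stood at 0.30 and 0.15, and both were below 0 when scaled to the median of all probes. The other probe of TGIF1 gave 0.42.

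Of 20 genes for KMT2A, its fusion partners and their cofactors, 19 had a probe and 17 were detected, with a median of -0.09. Of the 17, 15 were within 1.5-fold, 1 was higher and 1 lower, where 6.55% of all genes were higher and 9.63% lower. Scaled to the median of all probes, 7 were lower and 0 higher. In that setting 3735 of all 10565 genes were at least 1.5-fold apart, and the median of all genes was -0.42. The probe of KMT2A gave 179 in shLY6E and 268 in shCtrl, a difference of -0.24, and the probe of MLLT3 was not detected on either array. These 2 genes are given because they form the fusion, and whether their probes read the fusion transcript is not stated by any source used here. AFF3, a fusion partner of the AF4 family, was 1.54-fold higher in shLY6E, at 161 against 170 as deposited, but stood at 0.31 without background correction and 0.24 when scaled to the median of all probes. MLLT10, a DOT1L cofactor, was 1.87-fold lower, at 285 in shLY6E and 675 in shCtrl, and its other detected probe gave -1.02. MLLT10 lies on chromosome 10, where the median difference of 324 genes detected on both arrays was -0.80 and 92.6% were below 0. The elongation kinase gene CDK9, its cyclin CCNT1 and LEO1, a subunit of the PAF complex, stood at 0.07, 0.10 and -0.09. The other detected probes of CCNT1 and LEO1 gave 0.24 and -0.43. CDK9 and CCNT1 were below 0 when scaled to the median of all probes.

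Of 20 further genes reported as KMT2A-fusion targets, 15 of 18 with a probe were detected, with a median of -0.01. By a factor of at least 1.5, 3 of the 15 were lower and 0 higher, against 9.63% lower and 6.55% higher among all genes. MYB, which encodes a progenitor transcription factor that sustains KMT2A-rearranged leukaemia, had an intensity of 1198 in shLY6E and 4018 in shCtrl. It was 2.46-fold lower, the 1 gene of this list at least 2-fold apart, and lay between -1.70 and -1.25 under the other settings. RUNX2, a runt-domain factor, was 1.67-fold lower, and its dimmer probe gave -0.32. Without background correction RUNX2 stood at -0.48, which left 2 genes of the list 1.5-fold lower. Over all 10565 genes, those at least 1.5-fold apart then numbered 675, against 1709 as reported. JMJD1C, a jumonji-domain gene that also lies on chromosome 10, was 1.77-fold lower, and its other probes gave -0.75 and -0.87. MYC differed by -0.17, and its other probe by -0.06. CDK6, a cell cycle kinase, and IGF2BP2, an RNA-binding protein gene, stood at 0.41 each. Scaled to the median of all probes, CDK6 was at 0.02 and IGF2BP2 was at -0.01.

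**Figure D3:**
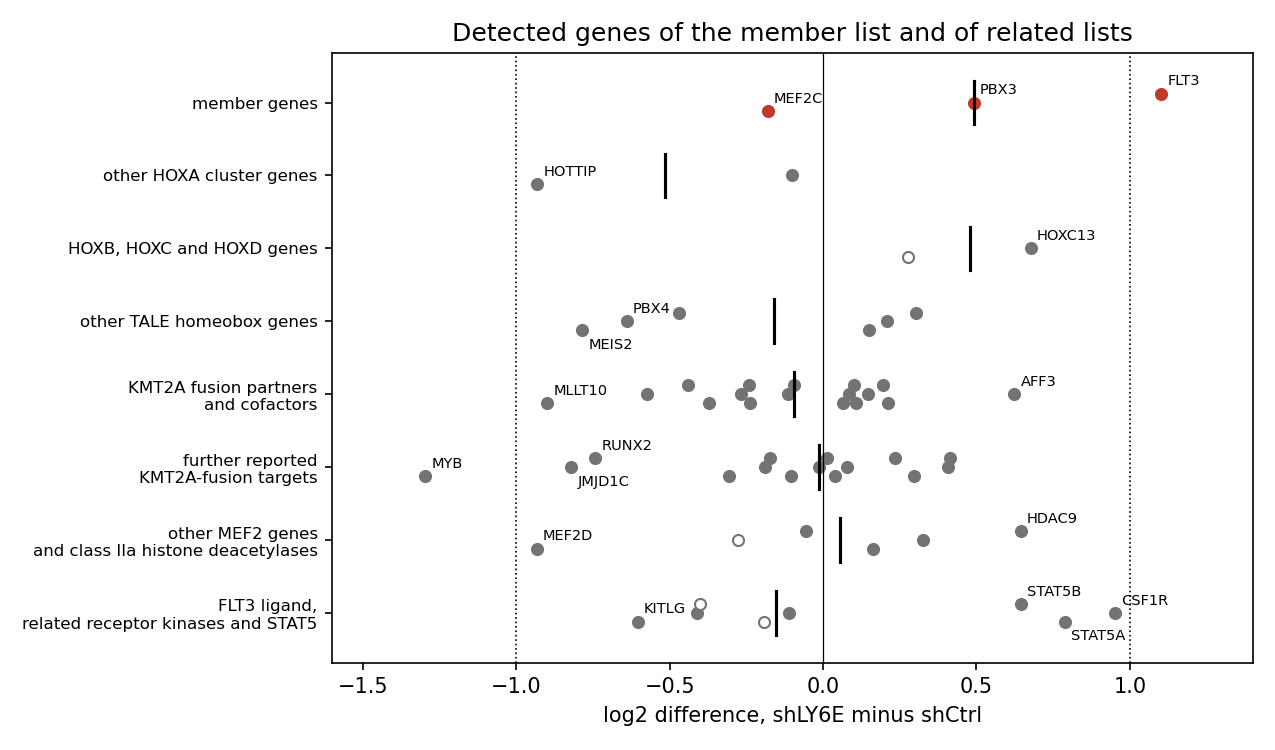
Log2 difference, shLY6E minus shCtrl, of each detected gene in the member list (red) and 7 related lists (grey), with the list median as a black bar. Open points are bounds for genes detected on 1 array, and dotted lines mark 2-fold. MYB (-1.30) and FLT3 (1.10) are the 2 genes past 2-fold.

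In the MEF2 family and the class IIa histone deacetylases that bind MEF2 proteins, 6 of 6 genes with a probe were detected, with a median of 0.05. MEF2D, another MADS-box factor of the family, had an intensity of 698 in shLY6E and 1837 in shCtrl and was 1.91-fold lower (-0.93), against -0.18 for MEF2C. MEF2A stood at 0.33, and at -0.01 when scaled to the median of all probes. HDAC4 and HDAC7 stood at -0.06 and 0.16, and each was of the opposite sign under 1 of the scalings. HDAC9 was 1.56-fold higher by its brightest probe, while its other detected probes gave -0.48 and 0.27. Without background correction HDAC9 stood at 0.22, and the mean over its probes was 0.14. Its brightest probe gave 123 in shLY6E and 132 in shCtrl, near the detection limit.

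Around FLT3 itself, 8 of 9 genes for its ligand, related receptors and downstream factors were detected. Their median was -0.15, and 0.27 over the 6 detected on both arrays. By a factor of at least 1.5, 3 of the 8 were higher and 1 lower, where 6.55% of all genes were higher and 9.63% lower. Without background correction 1 was higher and 0 lower, and scaled to the median of all probes 0 were higher and 2 lower. Of all 10565 genes, 675 were at least 1.5-fold apart without background correction and 3735 under that scaling, against 1709 as reported. Under that scaling the median of all genes was -0.42. CSF1R, the macrophage colony-stimulating factor receptor and a relative of FLT3, had 1759 in shLY6E and 1355 in shCtrl and was 1.93-fold higher. STAT5A and STAT5B, transcription factors activated by FLT3 signalling, were 1.73-fold and 1.56-fold higher, with STAT5A at 251 against 240 and STAT5B at 129 against 137 as deposited. Without background correction STAT5A stood at 0.52 and STAT5B at 0.24. Scaled to the median of all probes, CSF1R stood at 0.53, STAT5A at 0.35 and STAT5B at 0.36. FLT3LG, the FLT3 ligand, was detected in shCtrl only, and its bound was 1.32-fold lower in shLY6E. It stood at -0.13 without background correction, and its intensities of 104 in shLY6E and 142 in shCtrl lie near the detection limit. KITLG, the ligand of the related receptor KIT, was 1.52-fold lower, and at -0.25 without background correction. KIT stood at -0.11, and CBL, a ubiquitin ligase that turns over such receptors, at -0.41. Their other detected probes gave -0.44 for KIT and -0.23 for CBL.

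**Figure D4:**
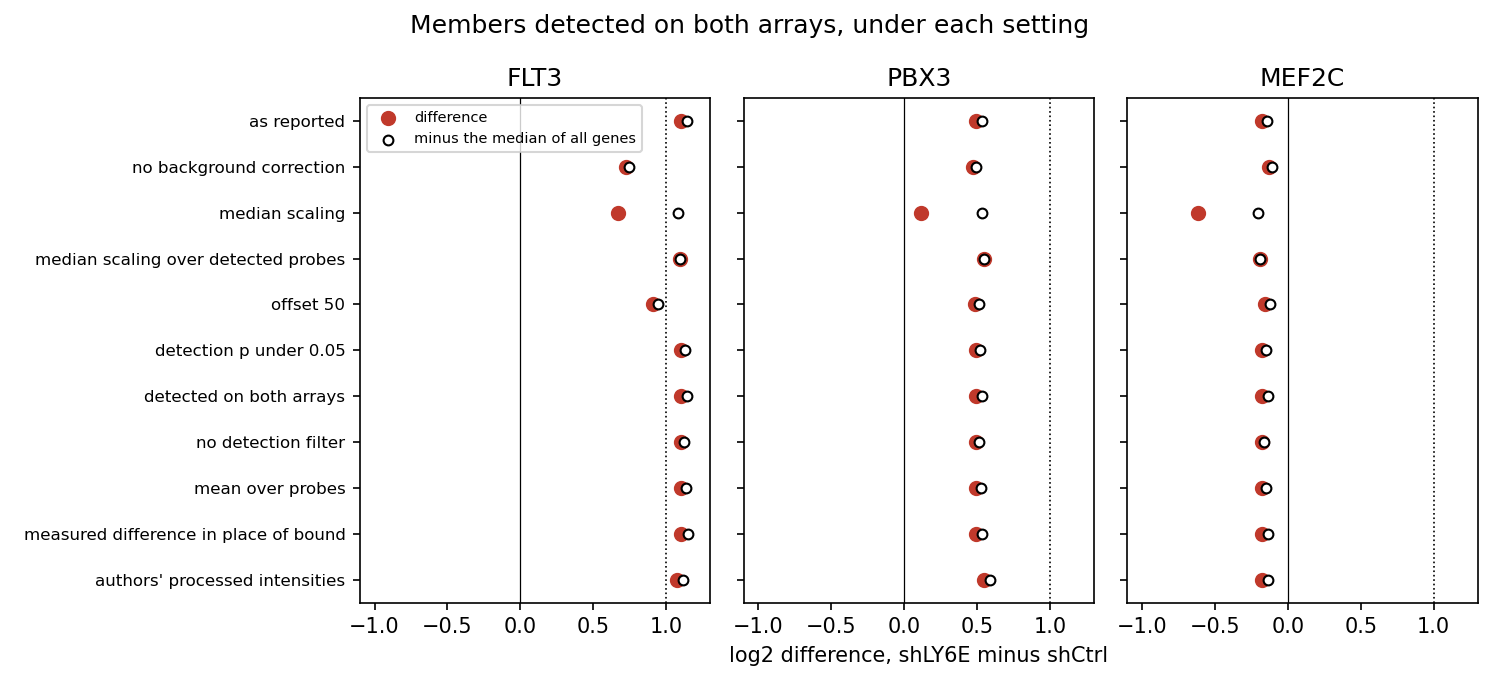
Log2 difference, shLY6E minus shCtrl, of the 3 detected members under each processing setting (red), and the same after subtracting the median of all genes in that setting (open circles). FLT3 is above 0 and MEF2C below 0 in every setting drawn, and the members move together under median scaling, where the median of all genes is -0.42.

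Across the 10 other settings, FLT3 lay between 0.67 and 1.10, PBX3 between 0.12 and 0.55, and MEF2C between -0.62 and -0.13. Each has 1 probe detected on both arrays, so settings of the detection rule, probe choice or bound could only return the reported difference. Relative to the median of all genes in the same setting, FLT3 lay between 0.75 and 1.15, PBX3 between 0.50 and 0.59, and MEF2C between -0.20 and -0.11.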

How the data were processed

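Total RNA of shLY6E and shCtrl THP-1 cells was read on 1 array each. Per the file headers, the deposited unnormalized table gives an intensity and a detection p-value per probe. The deposited p-values lie between 0 and 1, and the deposited intensities are linear, with no sign of scaling. A second deposited table holds the authors' processed intensities, on a linear scale with the same median (6.14) in both columns and 25.5% of values below 0. No source used here gives the authors' method for it or the scanner software. No column was left without a sample (0 columns).

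Intensities were background-corrected with normexp through the detection p-values, with an offset of 16, quantile-normalized and converted to log2 (limma 3.58.1, R 4.3.3). Python 3.11.15 with numpy 2.4.6, pandas 2.3.3 and matplotlib 3.10.9 did the rest. The offset shrinks differences of dim genes. Probes were named through the platform annotation: 30113 had 1 symbol, 8 had several and 17200 were not listed. By Entrez ID, 30074 matched RefSeq (GRCh38.p14). Genes needed a detected probe on at least 1 array, and the brightest such probe stood for the gene. Where only 1 array detected a gene, the difference is a bound against the other array's own value or its lowest detected one, whichever is higher. With 1 array per group no p-value was computed between groups. Genes named are all members, LY6E, and in each list those at least 1.5-fold apart and up to 3 bright others. The members and lists were chosen with earlier results of these data known. The steps were tested on simulated arrays.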

Additional observations from a re-analysis of the deposited data

How the results depend on the processing

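No paired analysis was possible because shLY6E and shCtrl had a single array each. Of 147 values under the 11 alternatives, 125 moved by less than the between-probe SD of 0.28 (counts: stayed within 1.5 times) and 22 moved further. Of the differences and medians among them, only FLT3 and LY6E were at least 1.5-fold apart as reported, and neither turned in sign. Smaller values did turn, such as the TALE median, from -0.16 to 0.12, 0.09 and 0.05 under changed detection rules or probe averaging. That SD is between single probes and does not measure the spread of a list median, so a median within it can still have turned in sign. Part of the 125 could not move. FLT3, PBX3, MEF2C and LY6E have 1 probe each, detected on both arrays. For them the settings on detection rule, probe choice or bound return the same value by construction. The count of members at least 2-fold lower was 0 in every setting. Lists with no detected gene on chromosome 10 likewise keep their median when that chromosome is left out. Scaling over the probes detected on both arrays was chosen after seeing the data. Scaling to the median of all probes put the median of all genes at -0.42. Under it FLT3 stood at 0.67, PBX3 and the member median at 0.12, MEF2C at -0.62 and LY6E at -2.32. The medians were -0.92 for other HOXA cluster genes, -0.62 for TALE genes, -0.55 for fusion partners and cofactors, -0.46 for further targets, -0.27 for MEF2 and deacetylase genes and -0.44 for FLT3-related genes. Without background correction FLT3 stood at 0.72, LY6E at -1.55 and the HOXB, HOXC and HOXD median at 0.16. The number of members at least 2-fold higher was 0 without background correction, with median scaling and with offset 50. With no detection filter the medians were -0.024 for other HOXA cluster genes and -0.031 for HOXB, HOXC and HOXD genes. With a detection p-value under 0.05 they were -0.00070 for HOXB, HOXC and HOXD genes and 0.12 for TALE genes, and with detection on both arrays 0.27 for FLT3-related genes. These filters change which genes enter a median. For the scaling and background settings the cause was not tested. Over all genes, those at least 2-fold higher and lower numbered 240 and 269, against 97 and 65 (no background correction), 144 and 129 (offset 50) and 130 and 909 (median scaling). Those at least 1.5-fold apart numbered 1709, against 675, 1048 and 3735. The signal limits dim genes: detected probes had a median intensity of 199.7 in shLY6E and 273.5 in shCtrl, where all probes had 97.5 and 116.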
